A study of Mus musculus with 11 samples.

Results

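The cell-surface adhesion molecules CD44, CD103 (gene Itgae), ICAM-1, PECAM-1, CD48, P-selectin (Selp) and CD93 were followed across 3 populations of mouse splenic CD4+ T cells. Members were the probe sets of a custom glycan gene chip whose identifier carries a RefSeq transcript of 1 of these genes. Each of the 7 genes had 1 such probe set, among 909 named genes and 1246 probe sets in all. The probe set of Cd93 has the suffix s, so its signal may not be specific to 1 transcript. Cells were sorted by flow cytometry from female C57BL/6 mice as CD4+CD25+(CD45RBlow) cells, called Treg in the labels (n = 3, replicates 1, 2 and 4), CD4+CD25-CD45RBlow cells, labelled activated/memory (n = 4), and CD4+CD25-CD45RBhigh cells, labelled naïve (n = 4). The labels give no treatment or transgene for any group, an age of 4 to 6 weeks for the mice of CD25- cells and none for those of Treg cells, so that age and population cannot be told apart in comparisons with Treg cells. The 2 CD25- populations are called CD45RBlow and CD45RBhigh from here on. The labels do not say whether replicates came from separate animals or pools, so the p-values below speak of the spread among these samples alone, which may be technical.

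Adhesion molecules hold T cells to the vessel wall, to tissue matrix and to other cells. CD44 binds hyaluronan, CD103 pairs with the beta-7 integrin chain and binds E-cadherin on epithelium, and ICAM-1 is a ligand of the integrin LFA-1. CD44 is a standard marker of antigen-experienced T cells, and CD103 is known from T cells in epithelium and from subsets of regulatory T cells.

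Values are log2 expression as deposited, on which a difference of 1 is a 2-fold change. The medians of the arrays ranged from 4.85 to 4.94. With 3 or 4 arrays a population, their number and the spread among them set the precision. Il2ra, which encodes CD25, read 9.69 to 10.02 in Treg, 5.77 to 6.54 in CD45RBlow and 3.85 to 4.45 in CD45RBhigh arrays. It was thus highest in the cells sorted as CD25+. The labels call both other populations CD25- and give no order between them. Il2ra was nonetheless 4.28-fold higher in CD45RBlow than in CD45RBhigh cells (limma adjusted p = 1.28e-05). Of 12 general T cell markers listed only Cd2 was measured under a gene name, at population means of 11.81 to 12.31. In these bulk samples, fewer cells of a type and less RNA per cell cannot be told apart.

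The genes fell into 4 patterns. Itgae rose in steps from CD45RBhigh through CD45RBlow to Treg cells. Cd44, Icam1 and Cd48 were higher in both CD45RBlow and Treg cells than in CD45RBhigh cells, and Pecam1 was lower in both. Selp was higher in Treg cells than in either CD25- population, and Cd93 was higher in CD45RBlow cells than in either of the others. In limma, with Benjamini-Hochberg adjustment over all probe sets and a threshold of 0.05, 6 of the 7 genes passed between Treg and CD45RBhigh cells, where 18.9% of all probe sets passed. Of these, 5 were higher in Treg cells, against 10.3% of all probe sets, and 1 was lower, against 8.59%. The arrays of the 2 populations did not overlap for 6 of 7, against 25% of all. Between CD45RBlow and CD45RBhigh cells 6 of 7 passed, against 12.6% of all probe sets, with 5 higher in CD45RBlow cells (7.62% of all) and 1 lower (4.98%). Arrays did not overlap for 5 of 7, against 17.8% of all. Between Treg and CD45RBlow cells 3 of 7 passed, against 12.5% of all, with 2 higher in Treg cells (6.74% of all) and 1 lower (5.78%). Arrays did not overlap for 3 of 7, against 21.3% of all. The split over all probe sets moved with the setting. Between CD45RBlow and CD45RBhigh cells 95 were higher and 62 lower, but 98 and 129 after a further quantile normalization and 125 and 146 with the replicate block. Between Treg and CD45RBhigh cells 128 were higher and 107 lower, but 97 and 132 with the arrays centred on bright probe sets and 151 and 179 with the block. Between Treg and CD45RBlow cells 84 were higher and 72 lower, but 112 and 133 with the block. The 3 comparisons share arrays. The genes were chosen with earlier results of these data known, so these counts describe them and do not set them apart from the rest of the chip.

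**Figure D1:**
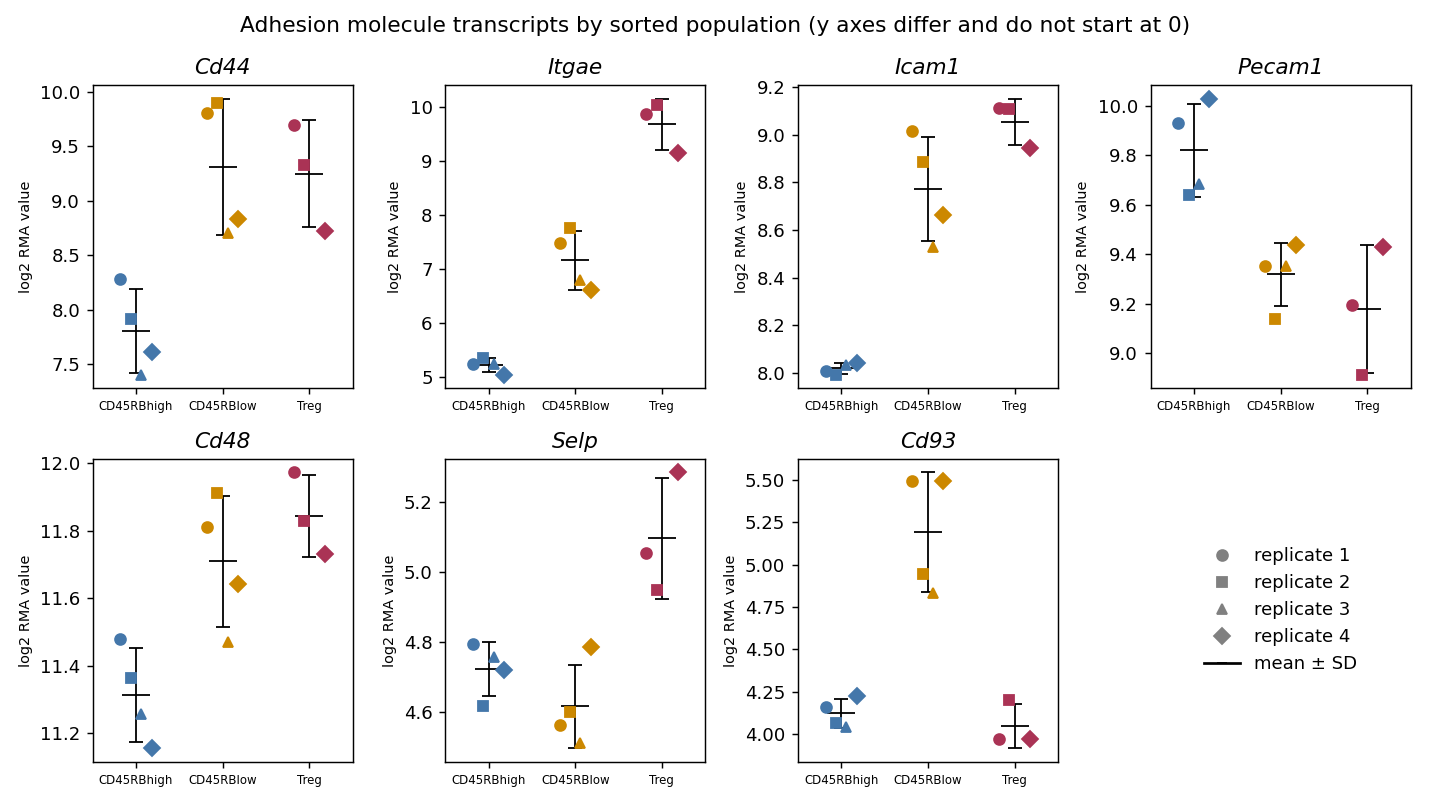
Log2 expression of each adhesion gene (y axis, a separate scale per panel) on every array, by population (x axis), with the marker shape giving the replicate number and the bar the mean ± SD. The 3 Treg arrays of Itgae sit between 9.15 and 10.04, above every CD45RBlow array, and the 4 CD45RBlow arrays of Cd93 sit between 4.83 and 5.50, above every array of the other populations.

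The stretches just upstream of the start sites of Icam1, Cd44 and Cd48 are shown because these 3 genes moved together, higher in both populations with low CD45RB. RefSeq promoter entries (build GRCm38.p6) matched these 3 genes and Selp. Itgae, Pecam1 and Cd93 have no entry here. Each stretch holds the 250 bases before the start site, 5′ to 3′ on the gene's strand, at chr9:21015690-21015939 (plus strand) for Icam1, chr2:102901666-102901915 (minus strand) for Cd44 and chr1:171681742-171681991 (plus strand) for Cd48. Capitals mark matches to 12 motifs of common T cell and general factors, searched on both strands.
Icam1: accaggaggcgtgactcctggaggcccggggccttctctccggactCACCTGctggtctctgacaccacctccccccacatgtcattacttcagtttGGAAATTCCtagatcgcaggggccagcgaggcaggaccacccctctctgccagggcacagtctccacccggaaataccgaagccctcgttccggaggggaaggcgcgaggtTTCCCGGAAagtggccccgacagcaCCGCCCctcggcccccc
Cd44: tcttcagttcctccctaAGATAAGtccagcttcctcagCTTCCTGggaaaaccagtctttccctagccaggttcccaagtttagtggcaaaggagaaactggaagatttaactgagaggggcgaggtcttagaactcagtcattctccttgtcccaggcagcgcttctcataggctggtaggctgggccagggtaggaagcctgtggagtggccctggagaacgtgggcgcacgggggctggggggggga
Cd48: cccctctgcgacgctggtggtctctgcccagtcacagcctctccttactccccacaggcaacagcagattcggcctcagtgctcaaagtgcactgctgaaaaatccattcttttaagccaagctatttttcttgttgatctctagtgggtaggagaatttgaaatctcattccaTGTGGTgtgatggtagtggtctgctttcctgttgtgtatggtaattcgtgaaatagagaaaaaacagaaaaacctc

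The Icam1 stretch holds the NF-kB motif GGAAANTCC, 153 to 145 bases upstream, which 1.07% of 32851 promoter stretches of this length hold. It also holds the STAT motif TTCNNNGAA, 42 to 34 bases upstream (7.02% of all stretches), the SP1 motif GGGCGG on the other strand (32.7%) and the E-protein motif CACCTG (17.2%). The Cd44 stretch holds the GATA motif AGATAAG (2.74%) and, on the other strand, the ETS motif CAGGAAG (10.8%). The Cd48 stretch holds the RUNX motif TGTGGT (14%). None of these motifs was found in more than 1 of the 3 stretches. A second NF-kB form (GGGANTTCC), the AP-1 motif TGANTCA, the TATA box TATAAA, the E-box CACGTG and the FOXO motif GTAAACA were not found in these windows. The matches are a description of the letters only.

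Cd44, the hyaluronan receptor, was about equally high in both populations with low CD45RB. In Treg cells it read 9.69, 9.33 and 8.72 (replicates 1, 2 and 4). In CD45RBlow cells it read 9.80, 9.90, 8.71 and 8.83 (replicates 1 to 4), and in CD45RBhigh cells 8.29, 7.91, 7.41 and 7.61. Every array of the first 2 populations lay above every CD45RBhigh array, while Treg and CD45RBlow arrays overlapped. Means were 9.25 ± 0.49 (SD, n = 3), 9.31 ± 0.63 (SD, n = 4) and 7.81 ± 0.38 (SD, n = 4). Cd44 was 2.84-fold higher in CD45RBlow than in CD45RBhigh cells (95% interval 1.76 to 4.58; limma adjusted p = 0.00830) and 2.72-fold higher in Treg than in CD45RBhigh cells (1.62 to 4.56; adjusted p = 0.0120). The latter call ended without Treg replicate 1, at a log2 difference of 1.22 and an adjusted p of 0.0596. Treg and CD45RBlow cells differed by -0.06 on the log2 scale, with an interval from -0.81 to 0.68 that allows a difference of more than 1.5-fold either way (adjusted p = 0.943).

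The spread of Cd44 within a population followed the replicate number. In each population replicates 1 and 2 read above replicates 3 and 4, by 0.79 in Treg, 1.08 in CD45RBlow and 0.59 in CD45RBhigh cells (log2). Within a number, Treg minus CD45RBhigh was 1.41, 1.41 and 1.11 (replicates 1, 2 and 4), and CD45RBlow minus CD45RBhigh was 1.51, 1.98, 1.30 and 1.22 (replicates 1 to 4). The difference from CD45RBhigh cells thus had 1 direction within every number. With the number as a block, the difference between Treg and CD45RBhigh cells was 1.28 (SE 0.12) in place of 1.44 (SE 0.34), and that between CD45RBlow and CD45RBhigh cells 1.50 (SE 0.11) in place of 1.50 (SE 0.31). Treg minus CD45RBlow was -0.11, -0.57 and -0.11 within numbers, lower in 3 of 3, and did not pass with the block either (-0.23, SE 0.12, adjusted p = 0.278).

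Itgae, the alpha chain of the E-cadherin-binding integrin CD103, had the widest range of the 7 genes, with population means 4.47 apart. CD45RBhigh arrays read 5.23, 5.36, 5.24 and 5.04 (replicates 1 to 4). CD45RBlow arrays read 7.48, 7.77, 6.80 and 6.61, and Treg arrays 9.87, 10.04 and 9.15 (replicates 1, 2 and 4). No array of 1 population overlapped those of another, so all neighbours in this order differed beyond their spread. Means were 5.22 ± 0.13 (SD, n = 4), 7.17 ± 0.55 (SD, n = 4) and 9.69 ± 0.47 (SD, n = 3). The lower step, from CD45RBhigh to CD45RBlow cells, was 3.86-fold (95% interval 2.61 to 5.72; limma adjusted p = 0.000324). The upper step, from CD45RBlow to Treg cells, was 5.73-fold (3.75 to 8.76; adjusted p = 8.27e-05). These calls held under each alternative and without each array in turn.

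The lower step of Itgae was larger in replicates 1 and 2, at 2.25 and 2.41 on the log2 scale, than in replicates 3 and 4, at 1.56 and 1.57. The upper step was 2.39, 2.27 and 2.53 within replicates 1, 2 and 4. Whether the lower step differs between the replicate sets was not tested. No other integrin chain was measured under a gene name, of 20 further chains listed, so the beta-7 partner of CD103 was not analysed here.

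**Figure D2:**
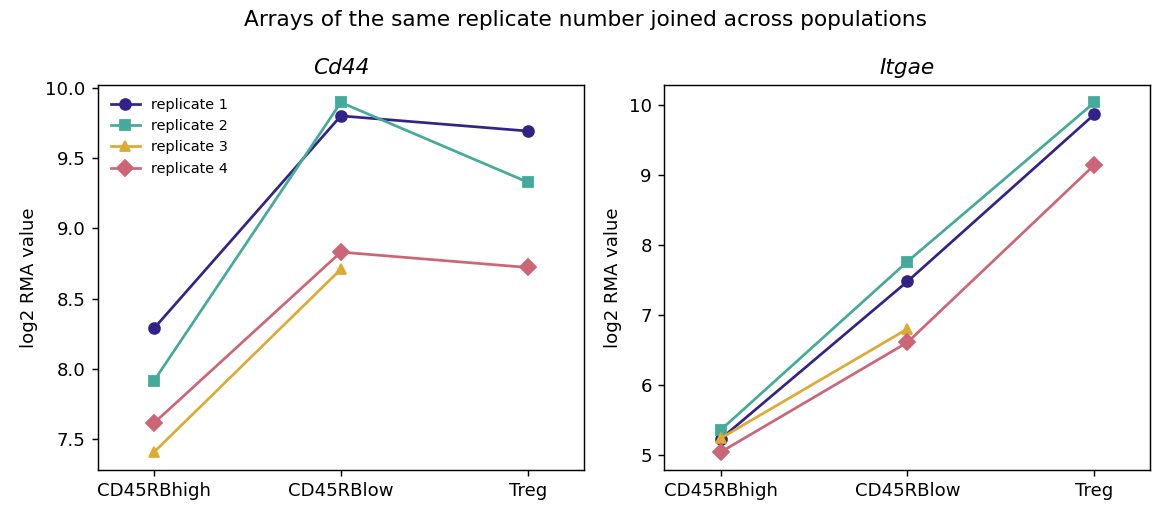
Log2 expression of Cd44 and Itgae (y axes, separate scales) in the 3 populations (x axis), with lines joining arrays of the same replicate number. In the 3 numbers that have all populations Cd44 climbs once and then dips, from 9.90 to 9.33 in replicate 2, whereas Itgae climbs at both steps.

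Icam1, the ligand of LFA-1 on T cells and antigen-presenting cells, was lowest in CD45RBhigh cells, where the 4 arrays read 8.01, 7.99, 8.03 and 8.04. CD45RBlow arrays read 9.02, 8.89, 8.53 and 8.66 (replicates 1 to 4) and Treg arrays 9.11, 9.11 and 8.94 (replicates 1, 2 and 4). Both populations lay wholly above CD45RBhigh cells and overlapped each other. Means were 8.02 ± 0.023 (SD, n = 4), 8.77 ± 0.22 (SD, n = 4) and 9.06 ± 0.097 (SD, n = 3). Icam1 was 2.05-fold higher in Treg (95% interval 1.75 to 2.41; limma adjusted p = 2.21e-05) and 1.69-fold higher in CD45RBlow cells (1.46 to 1.96; adjusted p = 0.000265) than in CD45RBhigh cells. Treg exceeded CD45RBlow cells by 0.28 (SE 0.10, adjusted p = 0.122), which did not pass. It passed without CD45RBlow replicate 1 (0.36, adjusted p = 0.0317) and after a further quantile normalization (0.33, adjusted p = 0.0432), and Treg was higher within 3 of 3 replicate numbers.

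Cd48, a lipid-anchored ligand of CD2 and of the receptor 2B4, moved the same way with smaller steps. It read 11.97, 11.83 and 11.73 in Treg cells (replicates 1, 2 and 4), 11.81, 11.91, 11.47 and 11.64 in CD45RBlow cells (replicates 1 to 4), and 11.48, 11.36, 11.26 and 11.16 in CD45RBhigh cells. Treg arrays lay above all CD45RBhigh arrays, while the lowest CD45RBlow array (11.47) fell just under the highest CD45RBhigh array (11.48). Treg cells were 1.44-fold above CD45RBhigh cells (95% interval 1.21 to 1.72; limma adjusted p = 0.00684) and CD45RBlow cells 1.31-fold above them (1.12 to 1.54; adjusted p = 0.0319). That second call was lost on leaving out CD45RBlow replicate 1 (adjusted p = 0.0966) or 2 (0.0910), or CD45RBhigh replicate 2 (0.0548), 3 (0.0750) or 4 (0.0778). It was higher in CD45RBlow cells within 4 of 4 replicate numbers, and with the number as a block the adjusted p was 0.00241. Treg and CD45RBlow cells differed by 0.13 (interval -0.11 to 0.38, adjusted p = 0.547).

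Pecam1, an adhesion and inhibitory receptor that binds itself on other cells and is best known from endothelium and platelets, was the 1 gene of the 7 that was highest in CD45RBhigh cells. It read 9.93, 9.64, 9.68 and 10.03 there (replicates 1 to 4), 9.35, 9.14, 9.35 and 9.44 in CD45RBlow cells, and 9.20, 8.91 and 9.43 in Treg cells (replicates 1, 2 and 4). Every CD45RBhigh array exceeded every other array. Pecam1 fell by 0.64 on the log2 scale in Treg cells (95% interval -0.93 to -0.35; limma adjusted p = 0.00553) and by 0.50 in CD45RBlow cells (-0.77 to -0.23; adjusted p = 0.0204), each relative to CD45RBhigh cells. Leaving out CD45RBlow replicate 2 (adjusted p = 0.0658) or CD45RBhigh replicate 1 (0.0611) or 4 (0.0522) ended the second call. It held with the replicate block (adjusted p = 0.000365), and Pecam1 was lower within 4 of 4 numbers. Treg and CD45RBlow cells differed by -0.14 (interval -0.43 to 0.15, adjusted p = 0.600), so that these neighbours were not separated.

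Selp, the selectin of platelet granules and endothelium that binds PSGL-1 on leukocytes, was low throughout and highest in Treg cells. Treg arrays read 5.06, 4.95 and 5.28 (replicates 1, 2 and 4). CD45RBlow arrays read 4.56, 4.60, 4.51 and 4.79 and CD45RBhigh arrays 4.79, 4.62, 4.76 and 4.72 (replicates 1 to 4). The 3 Treg arrays lay above all 8 others, and the CD25- populations overlapped. Selp was 1.40-fold higher in Treg than in CD45RBlow cells (95% interval 1.21 to 1.61; limma adjusted p = 0.00490) and 1.30-fold higher than in CD45RBhigh cells (1.13 to 1.49; adjusted p = 0.0152). The latter call ended without Treg replicate 4 (log2 difference 0.28, adjusted p = 0.0572) and with the arrays centred on their bright probe sets (0.31, adjusted p = 0.0652). CD45RBlow minus CD45RBhigh was -0.11 (interval -0.30 to 0.08, adjusted p = 0.423).

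Platelet markers were set beside Selp. Of 14 listed 3 were measured, and 0 passed in any comparison, with 0 at an unadjusted p under 0.05. Ppbp and Clec1b lay under 3.64, the first quartile of all values, in every population mean, while Pf4 read 4.72 in Treg, 4.53 in CD45RBlow and 4.66 in CD45RBhigh cells. Their summed linear level ran from 37.8 to 54.4 in Treg, 37.7 to 43.7 in CD45RBlow and 38.8 to 46.3 in CD45RBhigh arrays, so the ranges overlapped. The part of platelets in the Selp difference was not tested beyond these values.

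Cd93, a C-type lectin-like receptor of endothelium, myeloid cells and early B-lineage cells, was highest in CD45RBlow cells. Its mean there, 5.19, was not far above the median of all values (4.88). CD45RBlow arrays read 5.50, 4.95, 4.83 and 5.49 (replicates 1 to 4). CD45RBhigh arrays read 4.16, 4.07, 4.04 and 4.23 and Treg arrays 3.97, 4.20 and 3.97 (replicates 1, 2 and 4). All 4 CD45RBlow arrays lay above all others, and the spread among them (SD 0.35) exceeded that in CD45RBhigh cells (SD 0.085). Cd93 was 2.09-fold higher in CD45RBlow than in CD45RBhigh cells (95% interval 1.67 to 2.62; limma adjusted p = 0.000450), and Treg cells were lower than CD45RBlow cells by 1.14 on the log2 scale (log2 difference -1.14, interval -1.49 to -0.79; adjusted p = 0.000454). Treg and CD45RBhigh cells differed by -0.08 (interval -0.43 to 0.27, adjusted p = 0.802). The Treg and CD45RBhigh means, 4.05 and 4.12, lay not far above the first quartile of all values (3.64).

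Markers of other cells that can carry CD93 or PECAM-1 were set beside these genes. Of 26 myeloid and dendritic cell markers 15 were measured, 7 of them under the first quartile of all values in every population. Between Treg and CD45RBhigh cells 0 rose and 2 fell, Cd209a by 0.24 and Ly75 by 0.65 (log2), with 0 higher and 4 lower before adjustment. Between CD45RBlow and CD45RBhigh cells 0 rose and 3 fell, Clec10a by 0.31 and Cd209a by 0.26 (log2) among them, and between Treg and CD45RBlow cells limma called 0. Without adjustment, 0 were higher and 1 lower at p under 0.05. Their summed linear level was 265 to 274 in Treg, 283 to 293 in CD45RBlow and 294 to 323 in CD45RBhigh arrays. Of 18 endothelial markers 7 were measured. Sele and Vcam1 lay under the first quartile, and Emcn read 3.87 to 3.95 in population means. The endothelial sum was 771 to 1176 in Treg, 1020 to 1333 in CD45RBlow and 1366 to 1706 in CD45RBhigh arrays. Icam2, the brightest of the 7, makes up most of it, with means of 9.53, 9.88 and 10.25 in these populations. Between Treg and CD45RBhigh cells 0 of the 7 rose and 2 fell, Icam2 by 0.72 and Acvrl1 by 2.14. Between CD45RBlow and CD45RBhigh cells Acvrl1 fell by 0.68 (adjusted p = 0.00211 in limma), Vcam1 rose by 0.38 and the other 5 were not called. Between Treg and CD45RBlow cells 0 rose and 1 fell, Acvrl1 by 1.45. Of 10 B cell markers 3 were measured, and their sum was 372 to 432 in Treg, 243 to 313 in CD45RBlow and 255 to 318 in CD45RBhigh arrays. Between Treg and CD45RBhigh cells Cd22 (0.29) and Cd72 (0.54) both rose. Between Treg and CD45RBlow cells Cd72 rose (0.85) and Cd22 fell (-0.30). Between CD45RBlow and CD45RBhigh cells Cd22 rose (0.59), while Cd72 had a difference of -0.30 that did not pass (adjusted p = 0.156 in limma). Of 10 NK and CD8+ T cell markers 5 were measured, with Klra3 and Klrk1 under the first quartile, and the members of this list went opposite ways. Their sum was 707 to 919 in CD45RBhigh, 1018 to 1605 in CD45RBlow and 1592 to 2058 in Treg arrays, so that the last 2 ranges overlapped. Il2rb, a chain of the interleukin-2 receptor that T cells also express, had means of 7.27 in CD45RBhigh, 9.84 in CD45RBlow and 10.79 in Treg cells. Klrd1, the CD94 chain of NK cell receptors, fell by 5.29 (log2) in Treg and by 0.94 in CD45RBlow cells, each relative to CD45RBhigh cells. Of the 5, 1 rose and 2 fell between Treg and CD45RBhigh cells, 1 rose and 2 fell between Treg and CD45RBlow cells, and 2 rose and 1 fell between CD45RBlow and CD45RBhigh cells. The part of these cells in the differences of the 7 genes was not tested. Of 20 Treg markers listed 7 were measured, among them Il2ra, which encodes the CD25 used for the sort. All 7 rose in Treg over CD45RBhigh cells (10.3% of all probe sets) and over CD45RBlow cells (6.74%). They also rose in CD45RBlow over CD45RBhigh cells (7.62%). Between CD45RBlow and CD45RBhigh cells 7 of 7 naïve markers fell (4.98% of all probe sets) and 13 of 14 activated or memory markers rose (7.62%). Between Treg and CD45RBhigh cells 6 naïve markers fell (8.59%) and 4 activated or memory markers rose (10.3%). Between Treg and CD45RBlow cells 3 naïve markers fell and 1 rose, and 10 activated or memory markers fell (5.78% of all lower, 6.74% higher). The lists were chosen with earlier results of these data known, so these counts do not test the sort.

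**Figure D3:**
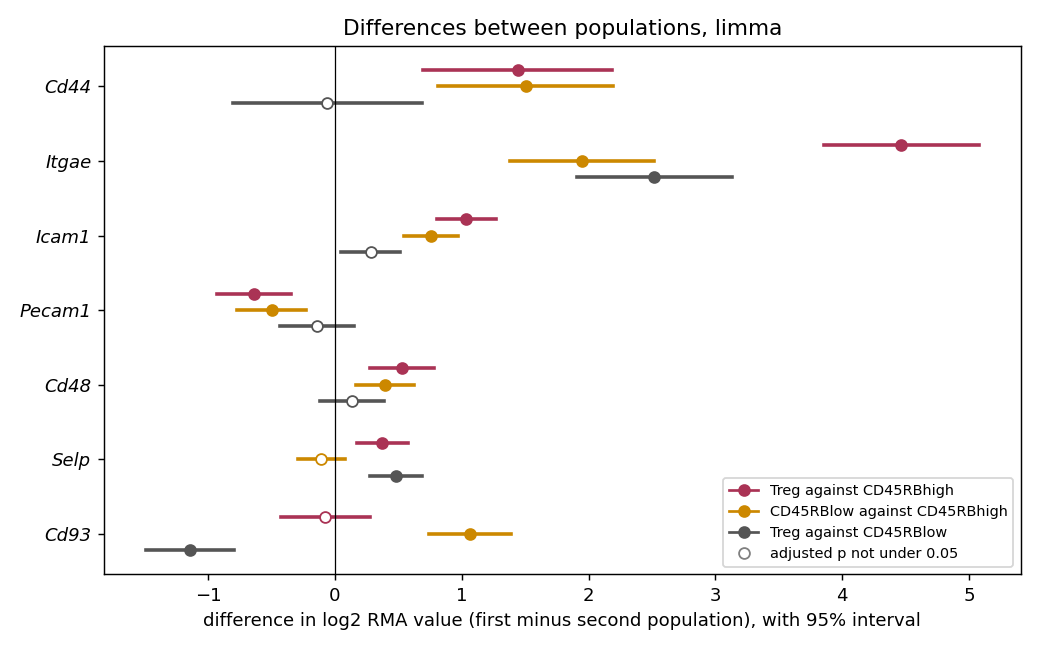
Difference in log2 expression (x axis) for each gene (y axis) in the 3 comparisons, with 95% intervals from limma and open circles where the adjusted p was not under 0.05. Itgae has all 3 intervals above 0, Cd44, Icam1, Cd48 and Pecam1 have open circles only between Treg and CD45RBlow cells, and Cd93 reaches -1.14 in that comparison.

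Beyond the 7 genes, 27 of 98 further adhesion genes listed were measured. The shares of them that passed, 14.8% between Treg and CD45RBhigh cells, 7.41% between Treg and CD45RBlow cells and 11.1% between CD45RBlow and CD45RBhigh cells, were near or under the 18.9%, 12.5% and 12.6% of all probe sets. In the first comparison 3 rose and 1 fell, with a median difference of -0.04 beside -0.04 over all probe sets. Between Treg and CD45RBlow cells 2 rose and 0 fell (median 0.05, all probe sets 0.04). Without adjustment, 4 were higher there and 0 lower at p under 0.05. Between CD45RBlow and CD45RBhigh cells 2 rose and 1 fell (median -0.09, all probe sets -0.08). With the replicate number as a block these counts were 3 and 2, 4 and 2, and 3 and 3, which is 18.5%, 22.2% and 22.2% of the 27, against 26.5%, 19.7% and 21.7% of all probe sets. Without Treg replicate 1 or without Treg replicate 2 the first comparison had 2 calls in place of 4. That is 7.41% of the 27, against 13.7% and 13.2% of all probe sets in these 2 fits.

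Among partners of CD44, Cd74, the invariant chain that forms a receptor complex with it, rose by 2.46 (SE 0.13) in Treg over CD45RBhigh cells, by 1.94 (SE 0.13) over CD45RBlow cells and by 0.52 (SE 0.12) in CD45RBlow over CD45RBhigh cells. Srgn, a proteoglycan core protein whose chondroitin sulfate chains CD44 can bind, rose by 0.78 (SE 0.22) in Treg over CD45RBhigh cells. The other 6 genes of this list, among them the hyaluronan synthases Has1, Has2 and Has3 and the hyaluronidases Hyal1 and Hyal2, passed in 0 comparisons in limma. At an unadjusted p under 0.05, Has1 was lower in Treg than in CD45RBhigh cells (-0.16) and Hyal2 higher in Treg than in CD45RBlow cells (0.27).

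Cd2, the receptor for CD48, rose in Treg cells by 0.50 (SE 0.07) over CD45RBhigh and by 0.45 (SE 0.07) over CD45RBlow cells, with means of 12.31, 11.81 and 11.86. Its CD45RBlow and CD45RBhigh means were 0.05 apart and did not pass, whereas Cd48 did. Icam2, another ligand of LFA-1, went the other way from Icam1 and fell by 0.72 (SE 0.18, adjusted p = 0.0159) in Treg relative to CD45RBhigh cells. Vcam1, the ligand of the integrin VLA-4, was 0.38 higher in CD45RBlow than in CD45RBhigh cells, but both means (3.14 and 2.76) lay under the first quartile of all values. The 5 measured C-type lectins and collectins related to CD93 passed in 0 comparisons, with 1 lower at an unadjusted p under 0.05 between CD45RBlow and CD45RBhigh cells.

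**Figure D4:**
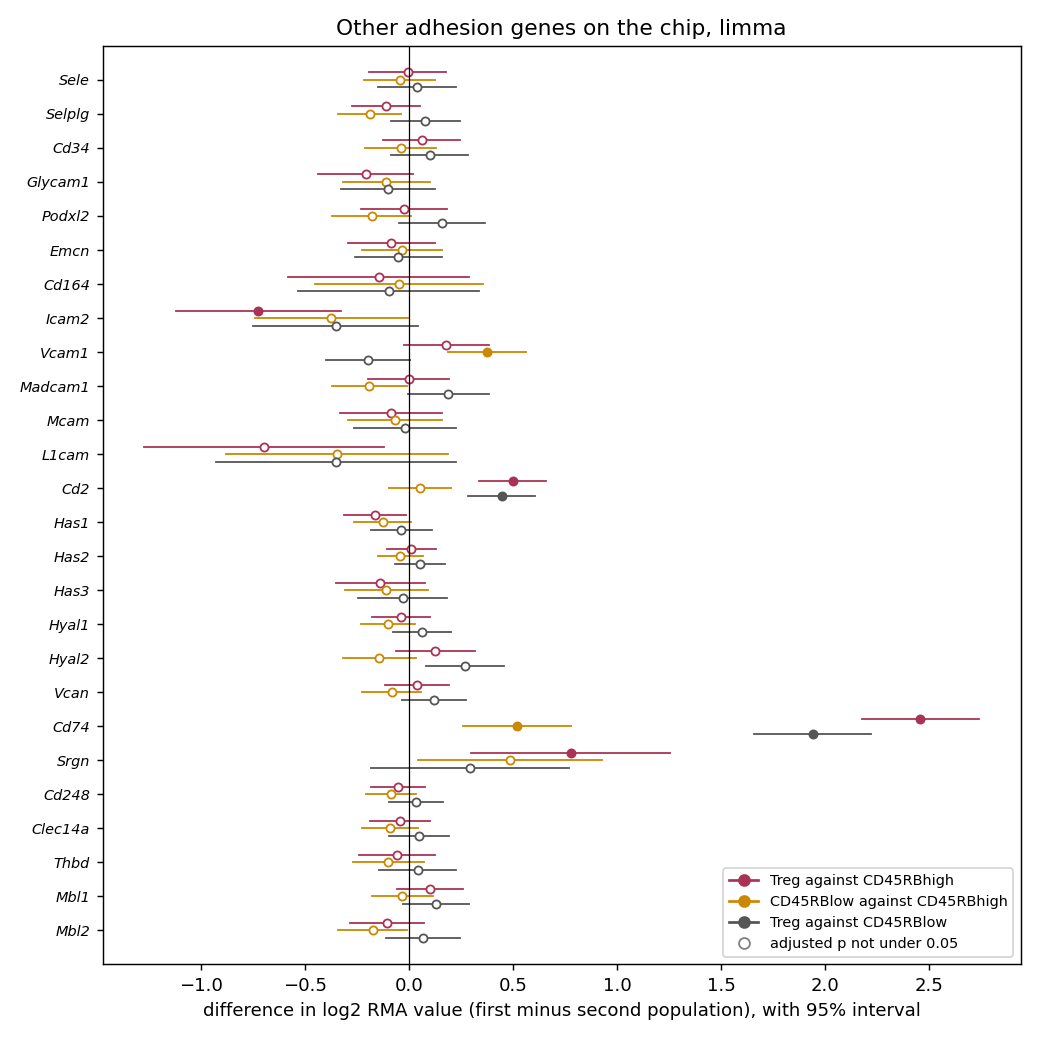
Difference in log2 expression (x axis) of 26 of the other adhesion genes measured (y axis) in the 3 comparisons, with 95% intervals from limma and open circles where the adjusted p was not under 0.05. Cd74 reaches 2.46 and 1.94 in the comparisons with Treg cells, and most other genes have intervals that include 0.

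Genes with the most similar pattern over the 11 arrays were ranked by Pearson's r among 909 named genes, for the 6 members whose population means span at least 0.5. These r describe arrays that share populations and replicate numbers, and have no p. Itgae ran closest to Il1r2, a decoy receptor for interleukin-1 (r = 0.990), Cd83, a surface glycoprotein of activated lymphocytes (0.989), and Klrg1, an inhibitory lectin-like receptor (0.987). Cd44 ran closest to Cks1b, a cofactor of cyclin-dependent kinases (0.968), to Cd48 itself (0.952) and to the gut-homing receptor Ccr9 (0.949). Cd48 ran closest to the sulfotransferase Chst11 (0.964), the chemokine receptor Ccr4 (0.956) and Cks1b (0.955). Icam1 ran closest to Ccr4 (0.983), the interleukin-2 receptor chain Il2rb (0.981) and Angptl2 (0.979). The probe sets of Ccr9 and Angptl2 have the suffixes x and s, so their signal may not be specific. Pecam1 followed Igf2bp2, an RNA-binding protein (0.978), the GalNAc-transferase Galnt11 (0.940) and Slc35a5 (0.929). Cd93 followed Tgfb3, a TGF-beta ligand (0.952), the chemokine Ccl5 (0.935) and the cytokine Il4 (0.929), all highest in CD45RBlow cells.

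Replicates 1 and 2 lay apart from replicates 3 and 4 on this chip, where 257 of 1246 probe sets (20.6%) differed between these sets with the population in the model. Of the 7 genes 3 did. Cd44 was higher in replicates 1 and 2 by 0.82 (SE 0.11, limma adjusted p = 0.000367), Itgae by 0.60 (SE 0.13, adjusted p = 0.00528) and Cd48 by 0.24 (SE 0.06, adjusted p = 0.0130). Icam1 (0.16), Pecam1 (-0.18), Selp (-0.11) and Cd93 (0.04) did not pass. Within replicates 1 and 2 alone, 5 of 7 genes passed between Treg and CD45RBhigh cells, against 20.6% of all probe sets in that fit, with Selp at 0.30 (adjusted p = 0.0592). Within replicates 3 and 4, with 1 Treg array, Cd44, Itgae and Icam1 passed there and between the CD25- populations, and Itgae alone between Treg and CD45RBlow cells. In these fits 7.06%, 5.06% and 3.93% of all probe sets passed between Treg and CD45RBhigh, CD45RBlow and CD45RBhigh, and Treg and CD45RBlow cells. All 7 genes kept their direction in each replicate set in the comparisons in which they had passed.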

How the data were processed

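The authors converted probe intensities of a custom Affymetrix glycan gene chip to expression values by Robust Multichip Average (RMA, version not given in the sources used here), per the series text and the submitters' processing notes. RMA corrects background, quantile-normalizes arrays and summarises each probe set. The deposited values are log2 values from 1.99 to 14.2, used here without further normalization or filter. Quantile normalization assumes a common distribution on all arrays, which on a chip of selected genes can shift small differences. Biotin-labelled RNA was prepared from total RNA, per the labels.

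RefSeq identifiers named 963 of 1246 probe sets and 909 genes. The brightest probe set stood for a gene. Limma 3.58.1 (R 4.3.3) estimated 1 mean for each population from the 11 arrays together, with empirical Bayes moderation (8 residual and 2.87 prior degrees of freedom). Tests were two-sided, and p-values were adjusted by Benjamini-Hochberg over the 1246 probe sets of each comparison. The fit was tested on simulated data with independent arrays and no shift between replicates, so that test does not cover the shared deviations described next. Arrays of the same replicate number deviated together in every pair (r = 0.310 to 0.561, 10 pairs of arrays from different populations). Pairs with another number from the same replicate set (1 and 2, or 3 and 4) also did (r = 0.203 to 0.579), so this is not particular to the number. Pairs across sets ran opposite (r = -0.646 to -0.175). Deviations were taken from each population's own mean, so positive pairs within sets draw pairs across sets towards negative values. Since every same-number pair exceeded 0.1, numbers were treated as pairing samples in a blocked fit, given where it bears on a result. Folds, intervals and p-values are from the fit without the block unless another fit is named. Treg cells lack replicate 3, so their unblocked differences can carry part of the shift between sets. With the block, Treg minus CD45RBhigh was 4.41 for Itgae, 1.00 for Icam1 and 0.36 for Selp, in place of 4.47, 1.04 and 0.37. Members and gene lists were chosen with earlier results of these data known. By rule, named genes were the members, Il2ra, up to 4 called adhesion genes per comparison and direction, up to 2 per marker list, and the 3 genes most like each member. Further platelet, endothelial, NK and hyaluronan genes are named for their levels, after their values were seen. Figures and tables were made with Python 3.11.15, pandas 2.3.3 and matplotlib 3.10.9. Of the other adhesion genes, 1 is counted but not reported here by name.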

Additional observations from a re-analysis of the deposited data

How the results depend on the processing

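Of 504 values for the 7 genes over 24 other settings, 480 kept their direction, where called, and their side of the threshold, 22 lost a call, 2 gained one and 0 reversed. The replicate block called 245 probe sets between Treg and CD45RBlow cells and 271 between CD45RBlow and CD45RBhigh cells, with 6 other adhesion genes in each, and changed no call of the 7 genes. With the replicate set as a term these were 238 and 247 probe sets (19.1% and 19.8%) with 5 and 6 other adhesion genes (18.5% and 22.2%). A random replicate block gave 4 other adhesion genes (14.8%) between Treg and CD45RBlow cells, against 15.6% of all probe sets.

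Replicates 3 and 4 alone, with 1 Treg array assumed to vary like the other groups, gave 88, 49 and 63 probe sets (Treg and CD45RBhigh, Treg and CD45RBlow, CD45RBlow and CD45RBhigh), 3, 1 and 3 of the 7 genes and 1, 1 and 0 other adhesion genes. Between Treg and CD45RBhigh cells the lost values were Pecam1 -0.43, Cd48 0.52 and Selp 0.55. Between Treg and CD45RBlow cells they were Selp 0.64 and Cd93 -1.19, and between the CD25- populations Pecam1 -0.46, Cd48 0.35 and Cd93 1.03. Fewer arrays enter these fits. Replicates 1 and 2 alone gave Selp 0.30 between Treg and CD45RBhigh cells. They gave 5 other adhesion genes (18.5%) between Treg and CD45RBlow cells, against 14.8% of all probe sets.

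Fitting only the arrays compared left Cd48 at 0.39 (limma adjusted p = 0.0503) between the CD25- populations. Centring on bright probe sets gave Cd48 0.36 there and Selp 0.31 between Treg and CD45RBhigh cells. A further quantile normalization gave Icam1 0.33 between Treg and CD45RBlow cells. It called 8 other adhesion genes (29.6%) between the CD25- populations, against 18.2% of all probe sets. Using only replicate numbers shared by all populations, chosen after seeing the data, gave 2 other adhesion genes (7.41%) between Treg and CD45RBhigh cells. Of all probe sets 16.5% passed in that fit. Leaving out each array in turn gave 1.22 to 1.71 for Cd44 and 0.28 to 0.45 for Selp between Treg and CD45RBhigh cells. It called 2 to 5 of the 27 other adhesion genes there, beside 164 to 227 of the 1246 probe sets. It gave 0.20 to 0.36 for Icam1 between Treg and CD45RBlow cells, and -0.56 to -0.43 for Pecam1 and 0.33 to 0.47 for Cd48 between the CD25- populations. Where no construction is named, the cause was not tested. A fit on other probe sets of a member was not run, since each has 1.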
